A study of Mus musculus with 7 samples.

Results

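Vascular smooth muscle cells, the contractile cells that ring arteries, arterioles and larger veins, were taken from 7 droplet-based single-cell RNA libraries, all made from microvessels of mouse brain. A barcode was kept when it held at least 500 genes and at most 15% mitochondrial UMIs, where a UMI (unique molecular identifier) stands for 1 captured mRNA molecule. A kept barcode was a member when at least 4 of the 8 genes Acta2, Myh11, Tagln, Myl9, Tpm2, Pln, Mustn1 and Lmod1 were detected, Acta2 held at least 3 UMIs, and Cldn5, Ly6c1 and Pecam1 together held at most 2. There were 1147 members among 39315 kept barcodes (2.92%), out of 43091 barcodes in all. Members were thus chosen by the measured UMIs of these 11 genes, so the levels of these genes are not results.

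The 12-month group had 3 libraries and the 3-month group 4, each from 1 brain hemisphere without cerebellum of an untreated C57Bl6 mouse. The tissue was broken up with collagenase, and beads against CD31 were used to enrich vessels, CD31 being a surface protein of endothelial cells, so smooth muscle cells entered beside the targeted type. Age changed together with the index type (single at 12 months, dual at 3 months) and the Cell Ranger version (4.0.0 and 6.1.1), and these cannot be told apart. The labels used here state no sex. Ddx3y, a Y-linked gene, was found in members of all 12-month libraries and of 3-month replicates 3 and 4, and Xist, an RNA of the inactive X, at 467 and 885 CPM (UMIs per 1000000 UMIs of the summed members) in 3-month replicates 1 and 2. Ddx3y was at 0 CPM in 3-month replicates 1 and 2. By these genes, sex was not balanced between the ages, and its part in the age differences was not tested. The p-values measure the spread between these libraries.

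Smooth muscle cells set the diameter of a vessel through actin and myosin. Calcium enters through voltage-gated channels or leaves internal stores, calmodulin activates myosin light chain kinase, and phosphorylated myosin pulls on actin, while myosin phosphatase reverses the step. The cofactor myocardin and serum response factor switch on many contractile genes by binding a short DNA element, the CArG box. Pericytes, the mural cells of capillaries, share many of these genes with smooth muscle.

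The CArG box was searched by that name in RefSeq promoters of the build GRCm38.p6, from 250 bases before to 50 bases after each start, and its reverse complement has the same form. It stood in 488 of 27025 genes (1.81%), in 3 of the 23 contractile genes with a promoter in the table (13.0%), and in 2 of the 11 matched genes of the 15 whose level in members most exceeded the other vessel cells (18.2%). A match is a description of the letters only. The 5 elements are shown with 20 bases on each side because they belong to genes described below, with the element in capitals and each sequence on the strand of its gene.
Vcl (chr14:20929151-20929200, plus strand): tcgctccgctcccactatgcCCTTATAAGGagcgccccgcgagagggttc
Myl6 (chr10:128493030-128493079, minus strand): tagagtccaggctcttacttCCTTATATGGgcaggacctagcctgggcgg
Filip1l (chr16:57549160-57549209, plus strand): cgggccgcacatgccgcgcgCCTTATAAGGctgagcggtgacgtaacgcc
Ldb3 (chr14:34588687-34588736, minus strand): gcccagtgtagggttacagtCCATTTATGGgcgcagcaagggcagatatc
Fbxl22 (chr9:66514786-66514835, minus strand): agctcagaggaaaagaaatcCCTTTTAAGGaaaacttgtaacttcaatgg
The element ended 41 bases before the start in Myl6, 53 in Filip1l, 213 in Fbxl22 and 218 in Vcl. Vcl and Filip1l hold the same 10 letters.

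The 12-month libraries held 164, 278 and 136 members and the 3-month libraries 108, 176, 148 and 137. Members made up 3.10%, 4.39% and 1.40% of kept barcodes at 12 months and 2.64%, 4.26%, 2.53% and 3.49% at 3 months, with exact Clopper-Pearson 95% intervals at the extremes of 1.18 to 1.66% and 3.90 to 4.93%. The intervals cover counting error only. The mean share was 2.96% ± 1.5 at 12 months and 3.23% ± 0.810 at 3 months (SD, n = 3 and 4), and the ranges overlapped. The difference of -0.267 percentage points gave p = 0.80 in a two-sided exact permutation test over 35 splits, which cannot go below 0.0286. With members held to at most 10% mitochondrial UMIs it was -1.07 (p = 0.17, exact permutation test). Its sign turned without 12-month replicate 3 (0.515) and without 3-month replicate 2 (0.0767).

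**Figure D1:**
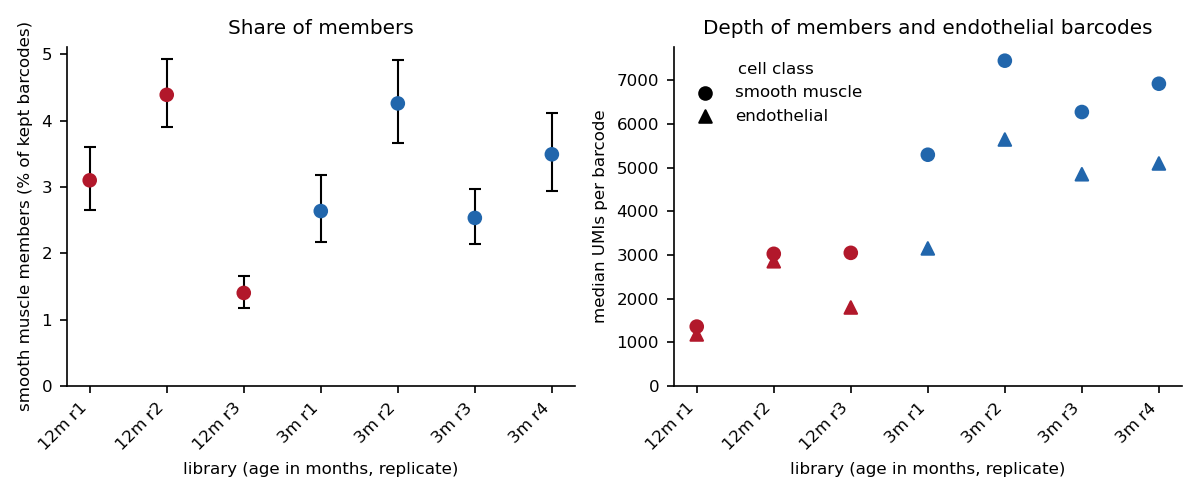
Left, members as a percentage of kept barcodes in each library, with exact 95% intervals. Right, median UMIs per barcode of members (circles) and endothelial barcodes (triangles), 12-month libraries in red and 3-month libraries in blue. The ages overlap in share, while all 12-month medians of members, 1357 to 3047 UMIs, lie below the 3-month ones, 5296 to 7451.

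Depth and quality differed with age. The median member held 1357, 3025 and 3047 UMIs in 12-month libraries and 5296, 7451, 6275 and 6923 in 3-month libraries. Summed over members, a library gave between 250347 UMIs (12-month replicate 1) and 1363899 (3-month replicate 2). Mitochondrial UMIs exceeded 10% in 4.88%, 62.2% and 33.1% of members at 12 months and in 1.85%, 14.2%, 9.46% and 9.49% at 3 months. Barcode sequences of 8 members (0.697%) also occurred in another library, and 0 were members in 2 libraries.

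All 8 smooth muscle genes of the rule were detected in 810 members (70.6%), and 830 members held 0 endothelial UMIs. Close to the thresholds, 21 barcodes missed membership with 2 Acta2 UMIs and 20 members had 3. With 3 of the 8 genes 5 barcodes stayed out, and 16 members had 4. With 3 endothelial UMIs 22 barcodes stayed out, and 67 members had 2. A further 513 barcodes passed on muscle genes but held 8 or more endothelial UMIs and are not described here. Among members, 36 carried one of the highest scrublet doublet scores and were kept.

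The label was checked on Cnn1, Mylk, Smtn and Des, smooth muscle genes outside the rule. All 4 were higher in members in every library than in any library of the 555 pericyte barcodes or of the 31663 endothelial barcodes. Pericyte barcodes had at least 3 of Kcnj8, Abcc9, Vtn, Higd1b, Atp13a5 and Ndufa4l2, fewer than 3 Acta2 UMIs and at most 2 endothelial UMIs, and endothelial barcodes at least 5 UMIs of Cldn5, Ly6c1 and Pecam1 together, fewer than 3 Acta2 UMIs and fewer than 4 of the muscle genes. The summed level of 8 pericyte markers was 783 to 1379 CPM in members at 12 months and 1116 to 2337 CPM at 3 months, against 16776 to 32282 CPM and 12742 to 20673 CPM in pericyte barcodes. Endothelial markers outside the rule summed to 176 to 664 CPM and 150 to 323 CPM in members, against 19843 to 22473 CPM and 21713 to 26572 CPM in endothelial barcodes. Rbfox3 and other neuronal markers summed to at most 3.37 CPM at 12 months and 5.45 CPM at 3 months. The members as a whole thus carried the markers of their label, and the exceptions are given with the subgroups.

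Levels in members are set beside pericyte and endothelial barcodes as a description without a test, since the rule chose the cells on that contrast. A gene is counted as above or below when the 7 library values of members do not overlap with the 7 of the other class. Over all 3977 genes counted against pericytes, 8.25% were above and 11.8% below, and of 4134 genes counted against endothelial barcodes, 17.5% were above and 27.6% below. Nothing is read from counts of lists against these shares.

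The 15 genes with the largest ratio of members to the higher of both other classes were Cnn1, Sh3bgr, Kcnab1, Susd5, Tesc, Pdlim3, Ntrk3, Fbxl22, Kcnma1, Actg2, Plin4, Ramp1, Ldb3, Smim5 and Palld. They include genes of the actin filament and the Z-disc (Cnn1, Pdlim3, Ldb3, Palld, Actg2), potassium channel subunits (Kcnab1, Kcnma1) and receptors (Ntrk3 for neurotrophin-3, Ramp1 for the vasodilator peptide CGRP). All 7 values of members lay above all values of both other classes for each of the 15. Of them, 9 had 0 UMIs in the pericyte barcodes, whose 1127635 UMIs put the limit of 3 counts at 2.66 CPM over the group.

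Cnn1 encodes calponin, an actin-binding protein that restrains myosin. It stood at 439, 277 and 457 CPM in members at 12 months and 435, 317, 363 and 326 CPM at 3 months, with 1 UMI in all pericyte barcodes and a mean of 0.286 CPM in endothelial barcodes. The libraries of the ages overlapped. A Cnn1 UMI was found in 47.9% of members and 0.114% of endothelial barcodes.

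Pdlim3, a LIM protein that binds alpha-actinin, averaged 317 ± 29.0 CPM in members and 0.637 ± 0.447 CPM in endothelial barcodes (SD, n = 7), with 3 UMIs in pericyte barcodes. Palld, the actin crosslinker palladin, averaged 901 ± 198 CPM in members, 14.3 ± 12.6 CPM in pericyte and 3.43 ± 4.63 CPM in endothelial barcodes. Ldb3, a Z-disc protein known from striated muscle, averaged 64.1 ± 23.1 CPM in members and had 0 UMIs in pericyte barcodes, at least 26.1-fold higher against the limit of 3 counts. Fbxl22, an F-box protein of the muscle Z-disc, averaged 290.0 ± 92.9 CPM in members and 1.64 ± 0.777 CPM in endothelial barcodes.

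Actg2, the smooth muscle gamma-actin best known from gut and bladder, had the largest SD relative to its mean among the 15. It stood at 24.0, 21.3 and 91.5 CPM at 12 months and 138, 43.3, 74.1 and 46.5 CPM at 3 months, and was found in 11.5% of members. The ages overlapped. Sh3bgr averaged 187 ± 33.8 CPM in members with 0 UMIs in pericyte barcodes (at least 70.9-fold higher), and Susd5 averaged 142 ± 44.0 CPM with 0 UMIs there (at least 48.9-fold higher).

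**Figure D2:**
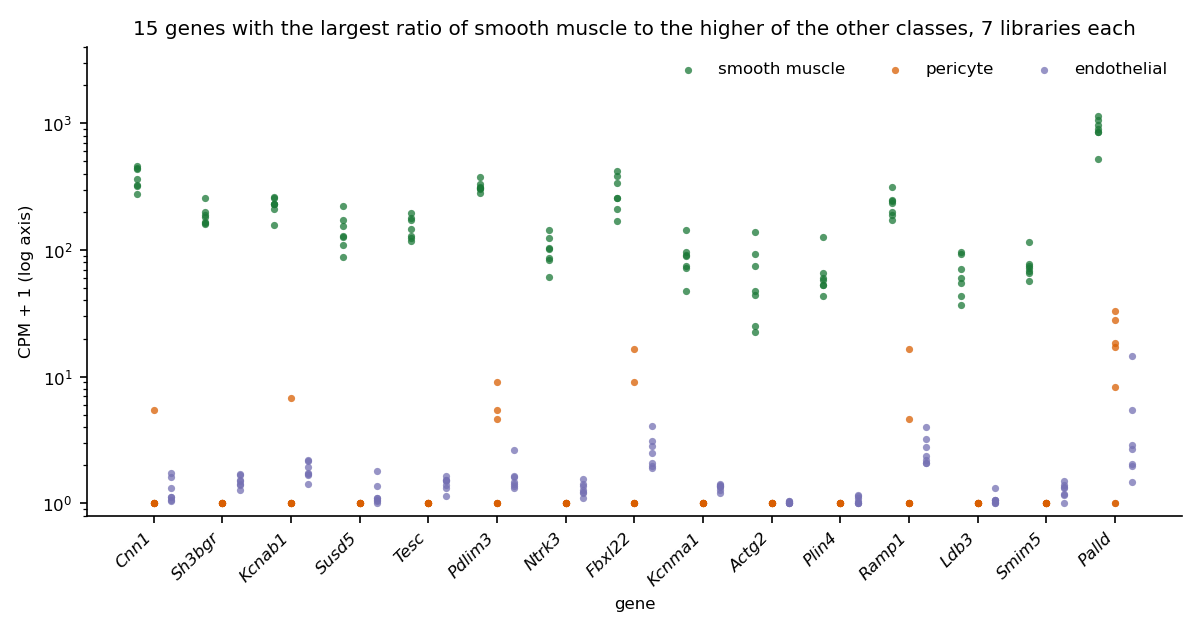
CPM + 1 on a log axis of the 15 genes in members, pericyte barcodes and endothelial barcodes, 1 point for each of 7 libraries. Every point of members lies above every point of the other classes, and 9 of the genes sit at 0 CPM in all pericyte sums.

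Of the 28 contractile genes outside the rule, 24 were above pericyte barcodes and 26 above endothelial barcodes, beside 8.25% and 17.5% of all genes counted. Of these 28, 0 were below either class, beside 11.8% and 27.6%. The median log2 ratio was 2.71 over pericytes and 4.04 over endothelial barcodes, beside -0.28 and -0.22 for all genes counted. Myl6, the essential myosin light chain, averaged 7800 ± 1018 CPM in members, 1205 ± 163 CPM in pericyte and 1560 ± 256 CPM in endothelial barcodes. Mylk, the myosin light chain kinase, averaged 2508 ± 544 CPM, against 469 ± 119 CPM and 44.0 ± 24.3 CPM. Tpm1, a tropomyosin outside the rule, averaged 4622 ± 1078 CPM, against 694 ± 209.7 CPM and 302 ± 52.0 CPM, and Flna, the actin crosslinker filamin A, 1842 ± 181 CPM, against 325 ± 95.7 CPM and 65.0 ± 7.76 CPM. These genes stood highest in members in every library. The exceptions against pericytes were Cald1, Vcl, Filip1l and Itga7. Caldesmon (Cald1) averaged 3089 ± 800.5 CPM in members and 3601 ± 905 CPM in pericyte barcodes, and vinculin (Vcl) 420 ± 78.9 CPM and 449 ± 82.7 CPM.

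Genes of myosin phosphatase and its control followed in part. Ppp1r12b, a targeting subunit of myosin phosphatase, averaged 475 ± 81.4 CPM in members, 58.0 ± 19.3 CPM in pericyte and 11.1 ± 1.92 CPM in endothelial barcodes. Ppp1r12a, its paralog, averaged 950 ± 251 CPM, against 237 ± 42.3 CPM and 135 ± 21.8 CPM, and the catalytic subunit gene Ppp1cb 506 ± 64.1 CPM, against 123 ± 48.9 CPM and 178 ± 27.1 CPM. Rock1, a kinase that restrains myosin phosphatase, was also above both classes. Arhgap42, a GTPase-activating protein of smooth muscle, was below pericytes, with 64.8 ± 10.0 CPM in members and 331 ± 49.2 CPM in pericyte barcodes. Of this list of 20, 6 of 17 counted genes were above pericytes and 2 below, beside 8.25% and 11.8% of all genes counted.

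Among transcription factors and Notch genes, Myocd was the only one of 16 counted genes above pericytes, beside 8.25% of all genes counted. Myocd, the gene of myocardin, averaged 98.0 ± 37.4 CPM in members, had 3 UMIs in pericyte barcodes and averaged 0.140 CPM in endothelial barcodes. Notch3, the receptor of mural cells, averaged 505 ± 114 CPM in members and 922 ± 171 CPM in pericyte barcodes, which overlapped. Mef2c, a partner of contractile gene control, averaged 761 ± 92.7 CPM in members, 634 ± 91.8 CPM in pericyte and 245 ± 18.2 CPM in endothelial barcodes, and overlapped pericytes. Foxd1 and Nr2f1 were below pericytes. Against endothelial barcodes, 12 of 17 counted genes of this list were above, beside 17.5% of all genes counted, with Notch3 at 7.75 ± 5.15 CPM there.

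Of 23 counted ion channel genes, 6 were above pericytes and 5 below, beside 8.25% above and 11.8% below over all genes counted. Kcnab1, a beta subunit of voltage-gated potassium channels, averaged 224 ± 35.03 CPM in members with 1 UMI in pericyte barcodes. Kcnma1, the pore subunit of the large calcium-activated potassium channel, averaged 86.9 ± 30.1 CPM with 0 UMIs in pericyte barcodes (at least 30.9-fold higher), while its beta subunit Kcnmb1 averaged 109 ± 25.8 CPM in members and 62.4 ± 30.8 CPM in pericyte barcodes, which overlapped. Ryr2, a calcium release channel, averaged 75.4 ± 22.3 CPM with 1 UMI in pericyte barcodes, and Kcnk3, a background potassium channel, 143.9 ± 40.6 CPM, against 35.3 ± 25.5 CPM. Atp2a2, the pump that refills the internal calcium store, averaged 904 ± 165 CPM in members, 313 ± 55.8 CPM in pericyte and 147 ± 26.3 CPM in endothelial barcodes. These genes were above pericytes except Kcnmb1. On the other side was the L-type calcium channel gene Cacna1c, at 90.0 ± 20.6 CPM in members and 148 ± 38.8 CPM in pericyte barcodes. Casq2, a calcium-binding protein of the internal store, stood at 47.7 ± 21.3 CPM in members and 327 ± 158 CPM in pericyte barcodes.

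Of 9 counted receptor genes for vasoactive signals, 5 were below pericytes and 2 above, beside 11.8% below and 8.25% above over all genes counted. The 2 above were Npy1r, a receptor for neuropeptide Y, at 274.5 ± 50.1 CPM in members and 82.0 ± 32.6 CPM in pericyte barcodes, and Ramp1 at 228 ± 47.4 CPM in members with 2 UMIs in pericyte barcodes. Below were P2ry14, a receptor for UDP-glucose, at 60.2 ± 14.5 CPM in members and 466 ± 95.8 CPM in pericyte barcodes, and the endothelin receptor gene Ednra at 186 ± 15.9 CPM in members and 312 ± 48.3 CPM in pericyte barcodes. Among cyclic nucleotide genes, Pde3a averaged 575 ± 154 CPM in members, 175 ± 55.3 CPM in pericyte and 2.01 ± 0.835 CPM in endothelial barcodes, and Adcy5, an adenylyl cyclase, 189 ± 36.3 CPM, 40.4 ± 19.5 CPM and 0.743 ± 0.318 CPM. Mrvi1, a target of cyclic GMP-dependent kinase, was also above both classes. Ptgis, the prostacyclin synthase, averaged 278 ± 113 CPM in members and 21.4 ± 11.5 CPM in endothelial barcodes, with 0 UMIs in pericyte barcodes (at least 88.4-fold higher).

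**Figure D3:**
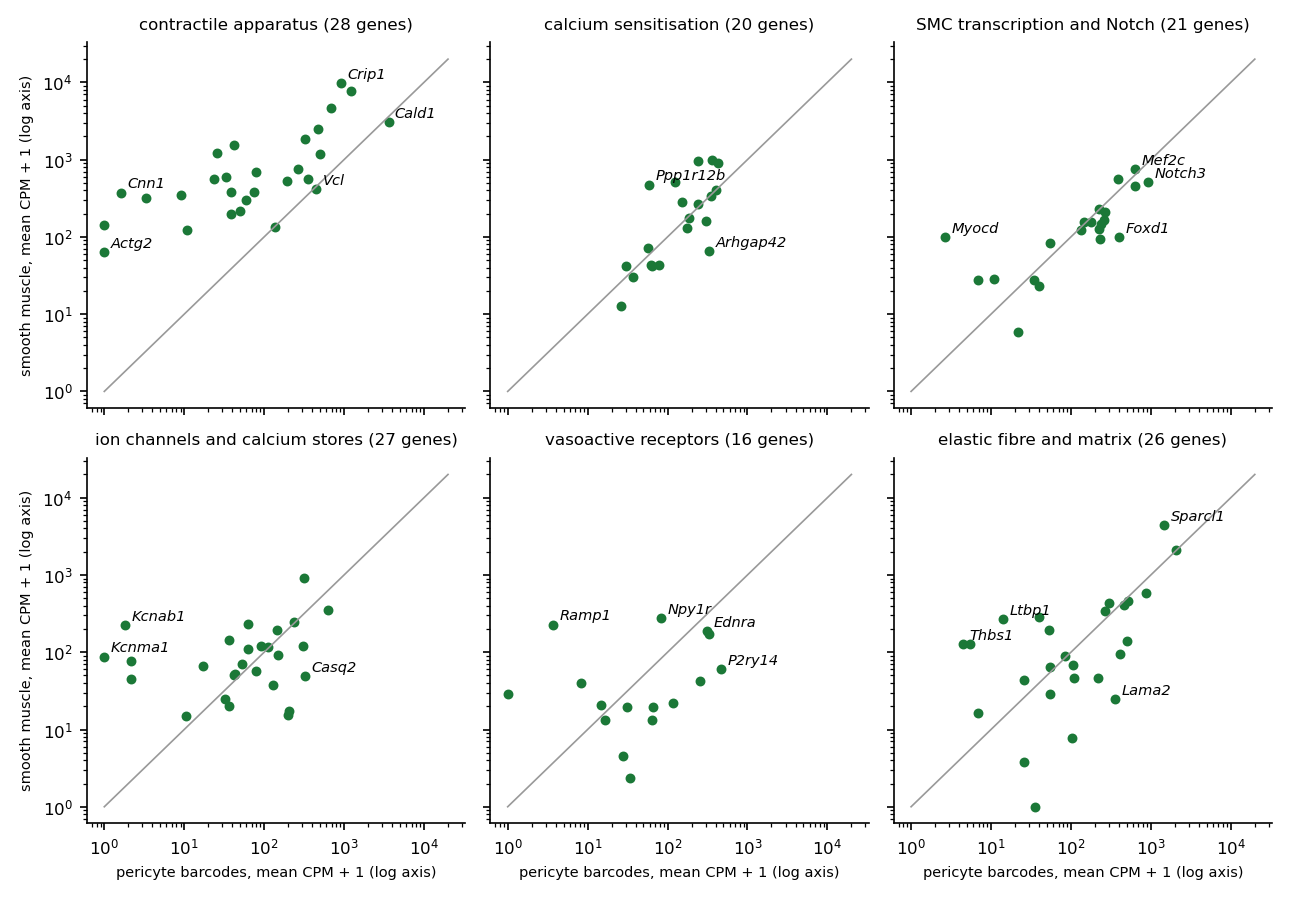
Mean CPM + 1 over 7 libraries in pericyte barcodes (x, log axis) and in members (y, log axis) for the reported genes of 6 lists, without genes that chose the cells and without genes under 20 CPM in the sum of both means. The line marks equal levels. Contractile genes lie above or close to it, while channels, receptors and matrix genes lie on both sides.

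Of 22 counted matrix genes, 6 were above pericytes and 5 below, beside 8.25% above and 11.8% below over all genes counted. Eln, the gene of elastin in the arterial wall, averaged 281 ± 92.3 CPM in members, 39.1 ± 23.9 CPM in pericyte and 66.6 ± 36.8 CPM in endothelial barcodes. Ltbp1, a binder of latent TGF-beta, averaged 268 ± 76.5 CPM, against 13.1 ± 11.2 CPM and 5.54 ± 2.84 CPM, and Thbs1, thrombospondin 1, 127 ± 20.7 CPM, against 3.46 ± 4.78 CPM and 4.46 ± 1.72 CPM. Col18a1, which gives collagen XVIII, was also above both. Lama2, a laminin chain, stood at 23.9 ± 7.85 CPM in members and 354 ± 91.2 CPM in pericyte barcodes.

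Of growth factor genes, Tgfb3 averaged 177 ± 25.04 CPM in members, 19.0 ± 15.3 CPM in pericyte and 0.609 ± 0.244 CPM in endothelial barcodes, and the PDGF ligand gene Pdgfa 329 ± 31.9 CPM, 183 ± 61.4 CPM and 58.6 ± 20.2 CPM. Bmpr1a, a BMP receptor, was above endothelial barcodes and overlapped pericytes. Pdgfrb, the receptor through which endothelial PDGF-B recruits mural cells, was below pericytes, at 379 ± 72.8 CPM in members and 2072 ± 595 CPM in pericyte barcodes. The intermediate filament gene Vim averaged 3427 ± 688 CPM in members, 217 ± 75.8 CPM in pericyte and 1058 ± 229 CPM in endothelial barcodes. S100a4, a calcium-binding protein often used for modulated smooth muscle, averaged 69.9 ± 62.0 CPM and was found in 4.88% of members, with 0 UMIs in pericyte barcodes.

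Of energy genes, Ckb, the brain-type creatine kinase, averaged 1703 ± 397 CPM in members, 239.8 ± 64.6 CPM in pericyte and 64.7 ± 18.5 CPM in endothelial barcodes. Ndufa4, a respiratory chain subunit, averaged 633 ± 106 CPM, against 56.5 ± 18.9 CPM in pericyte and 593 ± 146 CPM in endothelial barcodes, while its paralog Ndufa4l2 had a part in choosing pericytes. Cox4i2, an isoform of cytochrome oxidase subunit IV, was below pericytes, at 141 ± 31.0 CPM and 733 ± 206 CPM. The insulin-responsive glucose transporter gene Slc2a4 averaged 77.9 ± 14.6 CPM in members and 0.191 ± 0.168 CPM in endothelial barcodes, and overlapped pericytes at 47.8 ± 20.1 CPM. The heat shock gene Cryab averaged 461 ± 105 CPM in members and 6.43 ± 4.33 CPM in endothelial barcodes, and overlapped pericytes at 240.0 ± 108 CPM.

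Immediate early genes respond within minutes to many stimuli. Of these, 5 of 21 counted were above pericytes and 3 of 22 above endothelial barcodes, and 0 were below either. Over all genes counted, 8.25% were above pericytes and 17.5% above endothelial barcodes, with 11.8% and 27.6% below. Fos averaged 5241 ± 2248 CPM in members, 792 ± 1010 CPM in pericyte and 2058 ± 1429 CPM in endothelial barcodes. It was above pericytes and overlapped endothelial barcodes, and so did Socs3, a feedback inhibitor of cytokine signalling, at 318 ± 148 CPM, 53.4 ± 40.0 CPM and 143 ± 94.1 CPM. Ccn2, a matrix-associated growth regulator, averaged 280.0 ± 127 CPM in members and 33.0 ± 14.9 CPM in endothelial barcodes and was above the endothelial values only. None of 12 counted heat shock genes was above or below pericytes, beside 8.25% and 11.8% of all genes counted.

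Members differed among themselves, and 8 subgroups were found by clustering on variable genes after centring each library. They are described by their leading genes and are not cell types. Subgroup 1 (279 members) was led by immediate early genes (Klf2, Fos, Atf3, Junb). Subgroup 2 (261) was led by Rgs5 and Rgs4, and subgroup 3 (239), the deepest with a median of 6291 UMIs, by Ppp1r14a, Csrp1, Cnn1 and Ckb. Subgroup 4 (181) was led by mt-Nd5 and Mylk, at a median of 2651 UMIs and 9.07% mitochondrial UMIs.

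Subgroup 6 (60) was led by Mgp, an inhibitor of calcification, with S100a6 and Bgn, and Mgp reached 19173 CPM there. Subgroup 8 (13) was led by C1qa, C1qb and Cx3cr1, genes of microglia, and 61.5% of it was among the highest doublet scores. So was 16.7% of subgroup 6, against 0.418 to 3.28% of each remaining subgroup. Subgroups 5 (61) and 7 (53) lay nearest to the thresholds. Their medians were 9 and 8 Acta2 UMIs and 5 and 6 of the 8 muscle genes, against 8 genes in each other subgroup. Both were led by Rgs5 and Vtn, and both held little calponin, with Cnn1 in 3.28% of members of subgroup 5 and 0% of subgroup 7, against 84.1% of subgroup 3. Mylk was found in 82.0% and 94.3% of them. Smtn was found in 27.9% of subgroup 5 and 26.4% of subgroup 7, and Des in 78.7% and 67.9%. By CPM, Cnn1, Mylk and Smtn were lowest in these 2 subgroups. Des went the other way, being lowest in subgroup 6 (360 CPM, found in 55%), against 415 and 498 CPM in subgroups 5 and 7. Pericyte genes were among the leading genes of subgroups 2, 5 and 7. The median member held 3 of the 6 genes that chose pericytes in subgroup 2, and 4 in subgroups 5 and 7. In subgroup 2, Higd1b was found in 74.3%, Ndufa4l2 in 72.4% and Vtn in 68.6% of members. Subgroups 5 and 7 differed in these genes, with Kcnj8 at 572 and 46.8 CPM and Atp13a5 at 0 and 468 CPM.

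**Figure D4:**
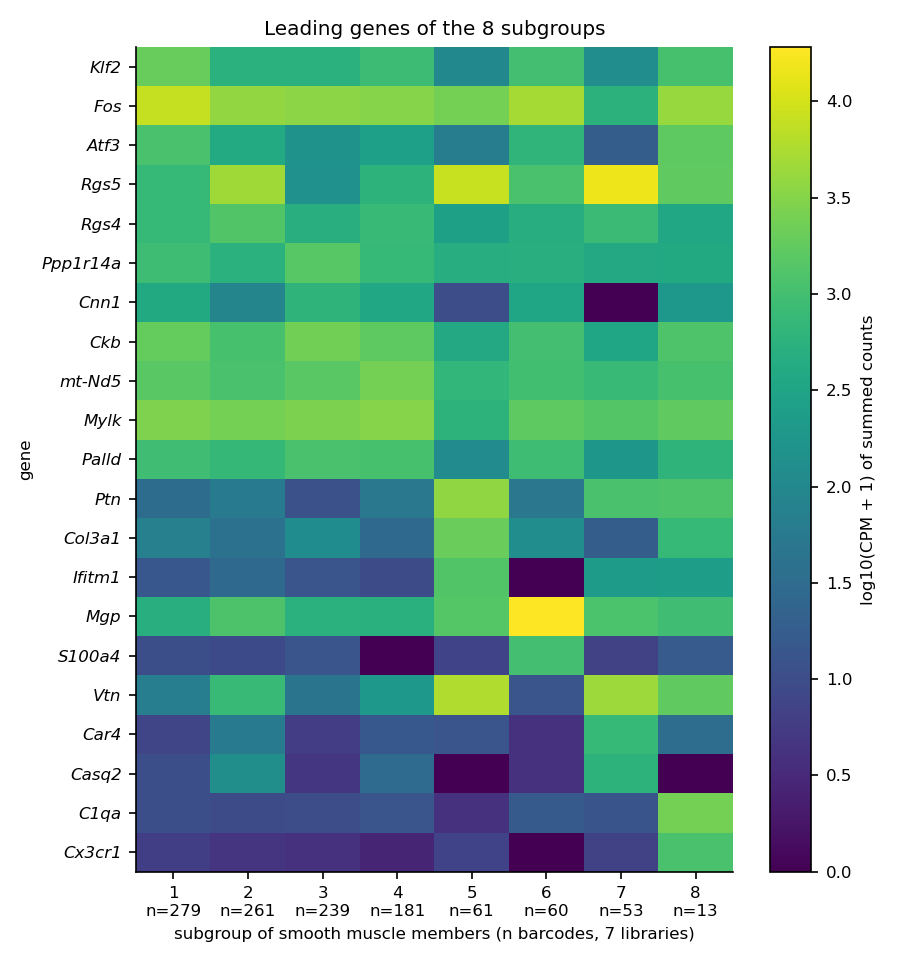
Colour gives log10(CPM + 1) of leading genes (rows) in counts summed over the members of each of 8 subgroups (columns), with their number of barcodes. Ptn, Col3a1 and Ifitm1 are highest in subgroup 5, Mgp in subgroup 6, and Cnn1 is lowest in subgroups 5 and 7.

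The ages were compared on UMI counts summed over the members of each library, with edgeR's quasi-likelihood test and Benjamini-Hochberg adjustment over 8012 genes. At an adjusted p under 0.05, 9 genes were higher (0.112%) and 14 lower (0.175%) at 12 months. At an unadjusted p under 0.05 there were 596 genes, and the ages did not overlap for 706 (8.81%). DESeq2 called 12 higher and 17 lower. The counts rest on single libraries: there were 5 higher and 3 lower without 12-month replicate 2, 6 and 3 without 12-month replicate 3, 19 and 23 without 3-month replicate 1, 20 and 37 without 3-month replicate 2, and 5 higher without 3-month replicate 4.

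The genes that rose at 12 months include Atf3 and Klf2, transcription factors of early response, of which Klf2 is known in endothelium for its response to flow. Klf2 stood at 2469, 1627 and 1501 CPM in members at 12 months and 763, 585, 618 and 409 CPM at 3 months. The ages did not overlap, and the log2 fold change was 1.64 ± 0.25 (SE; edgeR adjusted p = 0.0026). Atf3 stood at 3168, 830 and 701 CPM at 12 months and 326, 279, 207 and 76.2 CPM at 3 months, without overlap, and rose by 2.77 ± 0.44 on the log2 scale (edgeR adjusted p = 0.0032). Both calls held in 22 of 22 alternatives, but without 12-month replicate 1 the log2 fold change of Atf3 was 1.83 (adjusted p = 0.048). Of 23 immediate early genes tested, these 2 were higher and 0 lower, beside 0.112% higher and 0.175% lower of all 8012 genes tested. The list's median log2 fold change was 0.61, beside -0.01 for all genes. Of genes that missed the threshold, Klf4, a factor related to Klf2, stood at 631, 375 and 237 CPM at 12 months and 103, 226, 218 and 119.7 CPM at 3 months (edgeR adjusted p = 0.088).

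Rrad, a small GTPase that restrains calcium channels, stood at 843, 536 and 446 CPM at 12 months and 357, 207, 217 and 133 CPM at 3 months, a log2 fold change of 1.40 ± 0.29 (SE; edgeR adjusted p = 0.034). Id1, a target of BMP signalling, stood at 284, 285 and 414 CPM at 12 months and 122, 165, 138 and 150.4 CPM at 3 months, a log2 fold change of 1.198 ± 0.21 (edgeR adjusted p = 0.0091). Fam118a stood at 160, 140.3 and 148 CPM and 74.3, 82.9, 80.6 and 63.3 CPM, a log2 fold change of 0.99 ± 0.21 (edgeR adjusted p = 0.040). In these 3 genes the libraries of the ages did not overlap. These 3 calls rest on single libraries. Rrad missed the threshold without any 1 of the 12-month libraries or of 3-month replicates 3 and 4, at 1.16 and an adjusted p of 0.23 without 12-month replicate 1. Id1 missed it without 12-month replicates 2 or 3 or 3-month replicates 3 or 4, at 0.98 and 0.19 without 12-month replicate 3. Fam118a missed it without any 1 of the 12-month libraries or of 3-month replicates 3 and 4, at 1.01 and 0.25 without 12-month replicate 2.

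The other 4 genes higher at 12 months were named after their values were seen. Ptgs2, the inducible cyclooxygenase, had 39 UMIs at 12 months and 1 at 3 months, a pooled ratio of 94.0 with a counting interval of 15.9 to 3807. Pla2g4a, the phospholipase that releases arachidonic acid, had 64 UMIs at 12 months and 30 at 3 months, at 46.1 ± 22.5 CPM and 8.25 ± 3.34 CPM (SD, n = 3 and 4). The predicted genes Gm10076 and Gm26802 were also higher.

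The genes that fell at 12 months include the collagen gene Col3a1, the growth factor gene Ptn and the chemokine genes Ccl19 and Cxcl1. Ifitm1, an interferon-induced membrane protein, stood at 12.0, 24.7 and 6.53 CPM at 12 months and 180, 54.3, 206 and 165 CPM at 3 months, a log2 fold change of -3.12 ± 0.46 (SE; edgeR adjusted p = 0.0022). Col3a1, a fibrillar collagen, stood at 47.9, 38.2 and 58.8 CPM at 12 months and 451, 122, 222 and 390 CPM at 3 months, a log2 fold change of -2.61 ± 0.39 (edgeR adjusted p = 0.0022). Ptn, the growth factor pleiotrophin, stood at 36.0, 110.0 and 71.9 CPM and 587, 144, 499 and 498 CPM, a log2 fold change of -2.42 ± 0.40 (edgeR adjusted p = 0.0049). In none of the 3 did the libraries of the ages overlap, and 3-month replicate 2 was the lowest of its age in each. Without 12-month replicate 2, Ifitm1 stood at -4.11 (adjusted p = 0.013). Without 12-month replicate 2 Col3a1 missed the threshold (-2.44, adjusted p = 0.063), and so did Ptn without 12-month replicates 1 or 3 (-2.16 and -2.38, adjusted p = 0.055 and 0.097).

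Ccl19, a chemokine of lymphocyte homing, stood at 20.0, 10.1 and 2.18 CPM at 12 months and 533, 22.0, 208 and 166 CPM at 3 months (log2 fold change -4.54 ± 0.85, SE; edgeR adjusted p = 0.015). Near-identical gene copies share its reads, so its value is uncertain. The call was lost without any 1 of the 12-month libraries (adjusted p = 0.069, 0.20 and 0.19 without replicates 1, 2 and 3), and without 3-month replicate 1 the value was -3.69 (adjusted p = 0.0033). Cxcl1, a neutrophil chemokine, had 5 UMIs at 12 months and 113 at 3 months, and Kcnj8, the pore of the pericyte potassium channel Kir6.1, 9 and 229 UMIs. Both were called, at log2 fold changes of -3.17 ± 0.55 and -3.50 ± 0.70 (SE; edgeR adjusted p = 0.0076 and 0.027). Also lower were Meg3, a long noncoding RNA (-2.11 ± 0.33), and Marcks, a membrane-linked actin regulator (-1.67 ± 0.31), with edgeR adjusted p of 0.0026 and 0.016. Without 12-month replicate 2 or 3, none of Cxcl1, Kcnj8, Meg3 and Marcks passed (adjusted p of 0.064 to 0.35, Cxcl1 at -4.24 without replicate 2), and Kcnj8 was also lost without 12-month replicate 1 (-4.10) or 3-month replicate 3, and Marcks without 3-month replicate 3 or 4 (0.058 to 0.075).

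Hspa1b, an inducible Hsp70, stood at 51.9, 62.8 and 74.1 CPM at 12 months and 432, 214, 257 and 172 CPM at 3 months, a log2 fold change of -2.04 ± 0.32 (SE; edgeR adjusted p = 0.0026). Its near-identical copy Hspa1a stood at 400.0 ± 38.6 CPM at 12 months and 626 ± 143 CPM at 3 months (adjusted p = 0.50), and since reads can be split between the copies, both values are uncertain. Hspa1b was the only one of 16 heat shock genes past the threshold, beside 0.112% higher and 0.175% lower of all genes tested. It missed the threshold without 12-month replicate 2 (-2.06, adjusted p = 0.063). Steap4, Arhgdib, Tshz2 and Phpt1 were also lower and are named after their values were seen.

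**Figure D5:**
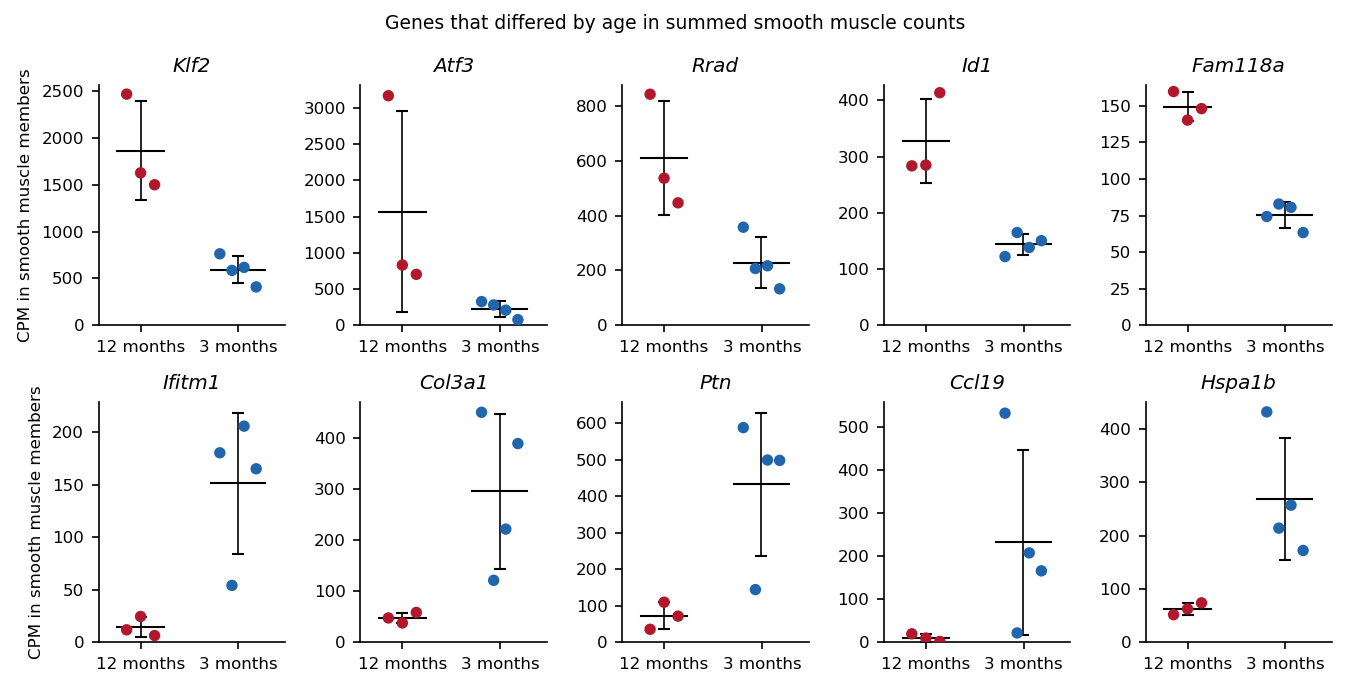
CPM of 10 genes in summed members, 1 point for each library, 12 months in red on the left and 3 months in blue on the right, on linear axes of different height. Lines give the mean and bars the SD (n = 3 and 4), and the ages do not overlap in any of the 10 genes.

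The genes higher at 12 months also lay unevenly over the members. Subgroup 1 held 24.1% of all UMIs of members, and 56.1% of the Atf3 UMIs, 53.2% of Rrad, 51.8% of Klf2 and 43.7% of Id1, against 28.1% of Fam118a. It made up 28.7%, 27.0% and 34.6% of members at 12 months and 22.2%, 25%, 13.5% and 16.1% at 3 months, without overlap. Klf2 and Atf3 lead this subgroup, so its size and their levels rest on the same counts and are not independent. Each library was centred before clustering, so the subgroup was formed on levels relative to the mean of each library. Its shares therefore do not compare absolute levels between the ages.

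Of the 28 contractile genes outside the rule, 0 were higher and 0 lower, beside 0.112% higher and 0.175% lower of all 8012 genes tested. At these shares a count of 0 or 1 is not read as a result about a list. The log2 fold changes of the 28 lay between -0.67 (Actg2) and 0.61 (Itga8), with a median of 0.08. Mylk averaged 2875 ± 103 CPM at 12 months and 2232 ± 589.9 CPM at 3 months (edgeR adjusted p = 0.77). The same count of 0 and 0 was found in 20 calcium sensitisation genes, 20 transcription and Notch genes, 14 vasoactive receptors, 21 cyclic nucleotide genes, 24 matrix genes, 16 energy genes, 12 clock genes and 13 genes of the mitochondrial genome. Of 31 ion channel genes 1 was lower (Kcnj8), of 24 PDGF and TGF-beta genes 1 was higher (Id1), of 8 genes of modulated smooth muscle 1 was lower (Col3a1), and of 5 chemokine and cytokine genes 2 were lower. A miss of the threshold does not show that levels were equal. Different subgroups held the members of each age beside these results. Subgroup 3, led by Ppp1r14a, Csrp1 and Cnn1, made up 1.22%, 7.91% and 4.41% of members at 12 months and 37.0%, 25.6%, 42.6% and 44.5% at 3 months, and subgroup 4, led by mt-Nd5 and Mylk, 27.4%, 27.0% and 24.3% at 12 months and 0%, 11.9%, 2.70% and 2.19% at 3 months. Subgroup 3 was also the deepest and subgroup 4 among the shallowest, and the part of depth in these shares was not tested. As each library was centred before clustering, these shares do not compare absolute levels between the ages.

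The UMIs of most genes lower at 12 months lay in few barcodes of 3-month libraries. Subgroup 5 held 10.2% of 3-month members and 8.23% of their UMIs. It held 93.0% of the Ccl19 UMIs of that age, 92.0% of Cxcl1, 80.6% of Ifitm1, 79.5% of Kcnj8, 79.1% of Ptn, 66.4% of Meg3, 65.3% of Marcks and 64.4% of Col3a1, against 16.2% of Hspa1b and 8.70% of Phpt1. By library it had 2, 1 and 0 members at 12 months and 17, 9, 19 and 13 at 3 months. The subgroup was formed from these same counts, so its size by age and the gene levels are not independent.

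Without subgroup 5, a choice made after the data were seen, 8 genes were higher and 2 lower, Hspa1b and Phpt1. Of these 10 genes, 9 were also called with all members. Ptn then differed by -0.27 and Marcks by -0.29 on the log2 scale, and Ifitm1 by -0.95 and Col3a1 by -1.31 (edgeR adjusted p = 0.66 and 0.19). Klf2 and Atf3 stayed past the threshold at 1.49 and 2.61 (edgeR adjusted p = 0.011 and 0.0080), and so did Id1 at 1.04 (0.045). Rrad and Fam118a missed it, at 1.30 and 0.96 (edgeR adjusted p = 0.13 and 0.089). Ccl19, Cxcl1 and Kcnj8 then fell under the filter on low counts.

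Several measures moved with this subgroup. Its members lie near the thresholds, and depth bears on who is a member: when each barcode was thinned to 1500 UMIs before the rule was applied, 34 of its 60 deep enough members (56.7%) still passed, against 248 of 249 in subgroup 1 and 234 of 236 in subgroup 3. By library, those that still passed numbered 1, 0 and 0 at 12 months and 14, 5, 8 and 6 at 3 months, out of 62, 271 and 128 members of all subgroups with at least 1500 UMIs at 12 months and 108, 173, 147 and 133 at 3 months. Thinning started from barcodes placed in the subgroup at full depth, so it could lower these counts but not raise them. It therefore cannot show what part depth had. Fibroblast markers, 7 genes all with a UMI in some library, summed to 99.9 to 174 CPM in members at 12 months and 342 to 825 CPM at 3 months, mostly from Col3a1 and Col1a2. Col1a1 was at 0 in every 12-month library and at 5.13 to 42.5 CPM at 3 months. Lum and Pdgfra were also at 0 in every 12-month library. At 3 months Lum had UMIs only in replicate 4, and Pdgfra only in replicates 2 and 4. Pericyte markers, 8 genes, summed to 783 to 1379 CPM and 1116 to 2337 CPM. The part of membership, depth and other cell types in the age differences was not tested.

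In pericyte barcodes of the same libraries Col3a1 stood at 0, 88.5 and 29.2 CPM at 12 months and 542, 378, 329 and 493 CPM at 3 months, which did not overlap either. Microglial markers summed to 67.3 to 823 CPM in members at 12 months and 45.7 to 330 CPM at 3 months, with 12-month replicate 1 the highest. That library was also the highest for Atf3, Klf2 and Rrad. Without it, Atf3 and Klf2 were still called, at log2 fold changes of 1.83 and 1.44 (edgeR adjusted p = 0.048 and 0.022). The part of microglial RNA was not tested.

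Whether an age difference in members differed from that in endothelial barcodes of the same libraries was tested by an interaction term in edgeR. Of 12107 genes, 39 had a higher effect of age in members (0.322%) and 234 a lower one (1.93%). Without 12-month replicate 1 there were 93 higher, and without 12-month replicate 2 there were 13 higher and 103 lower. Klf2 differed by 1.09 ± 0.20 on the log2 scale (SE; edgeR adjusted p = 0.0013), with 3319 ± 278 CPM at 12 months and 2387 ± 246 CPM at 3 months in endothelial barcodes. Atf3 did not pass this test, with a difference of -0.73 ± 0.24 (adjusted p = 0.12) and an endothelial log2 fold change of 3.43 ± 0.32. Rrad and Id1 did not pass it either (-0.38 ± 0.23 and 0.24 ± 0.17, adjusted p = 0.56 and 0.64). Both were also called higher at 12 months in endothelial barcodes (1.71 ± 0.24 and 0.94 ± 0.21, edgeR adjusted p = 0.0048 and 0.032). Ptgs2, Gm10076 and Gm26802 were called higher there too, and of these only Ptgs2 passed the interaction test (adjusted p = 0.016). Klf2, Fam118a and Pla2g4a were not called in endothelial barcodes.

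Fam118a differed by 0.99 ± 0.19 (edgeR adjusted p = 0.0024), and in endothelial barcodes it averaged 25.4 ± 2.87 CPM at 12 months and 27.4 ± 4.04 CPM at 3 months. Ddit4, a stress-induced inhibitor of mTOR signalling, stood at 140, 50.5 and 63.2 CPM in members at 12 months and 28.3, 35.2, 29.4 and 26.7 CPM at 3 months, against 84.1 ± 64.9 CPM and 108 ± 25.9 CPM in endothelial barcodes (difference 1.80 ± 0.26; edgeR adjusted p = 5.6e-05). Within members alone Ddit4 missed the threshold (adjusted p = 0.062). Ets2 and Golgb1 also had a higher effect in members, but neither was called in members alone (edgeR adjusted p = 0.54 and 0.21) or in endothelial barcodes alone.

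Ifitm1 was lower at 12 months in members, and differed by -4.69 ± 0.30 from the endothelial effect (edgeR adjusted p = 2.5e-11). In endothelial barcodes it averaged 51.1 ± 23.1 CPM at 12 months and 19.7 ± 10.1 CPM at 3 months. The ages overlapped there, and the endothelial change alone missed the threshold (edgeR adjusted p = 0.089). Without subgroup 5 the fall of Ifitm1 in members was not called either, as given above. Ccl19 and Meg3, with most of their 3-month UMIs in subgroup 5, differed by -3.29 ± 0.47 and -2.92 ± 0.43. Rarres2, the gene of chemerin, averaged 197 ± 27.1 CPM at 12 months and 317 ± 58.5 CPM at 3 months in members, and 10.4 ± 5.20 CPM and 3.57 ± 0.890 CPM in endothelial barcodes (difference -2.39 ± 0.19; edgeR adjusted p = 2.7e-09). Trpv2, a cation channel, averaged 55.1 ± 16.7 CPM and 71.9 ± 3.70 CPM in members and 2.21 ± 0.809 CPM and 0.560 ± 0.0721 CPM in endothelial barcodes. Both genes are high in members and low in endothelial barcodes. In members alone neither was called by age (edgeR adjusted p = 0.45 and 0.88). In endothelial barcodes both were called higher at 12 months (edgeR adjusted p = 0.023 and 0.0069). Pericyte markers summed to 62.7 to 429 CPM at 12 months and 76.8 to 134 CPM at 3 months in endothelial barcodes, and their part was not tested.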

How the data were processed

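The authors deposited raw UMI counts per gene and barcode, made with Cell Ranger 4.0.0 (12 months) and 6.1.1 (3 months) per the file headers, on the build mm10 per the submitters' processing notes, which also name Seurat. No source used here says whether intronic reads were counted. The 32285 genes shared by all files were used, and near-identical paralogs can share reads. The cell classes, members and gene lists were chosen with earlier results of these data known.

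Counts were summed per library and class. Levels are CPM of those sums, with ratios on log2(CPM + 1). Ages were tested with edgeR 4.0.16 in R 4.3.3 (TMM, filterByExpr, quasi-likelihood, adjusted p under 0.05, age alone), without the 11 genes of the rule. The interaction was a class-by-age term beside library and class. Shares were tested by an exact permutation test (scipy 1.17.1). Tests were checked on simulated counts. Subgroups came from Leiden clustering (scanpy 1.11.5, resolution 0.5, 15 components, 1000 variable genes). Alternatives were leaving out each library, other member rules, thinning, DESeq2 1.42.0, other filters and a replicate block.

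Named genes passed the test without overlap of the ages at a mean of at least 50 CPM (the 10 highest and 10 lowest), or were up to 4 called members of each list. Between classes, the 15 largest ratios and up to 4 genes of each list at 50 CPM or more were named. Cald1, Vcl, Filip1l, Itga7, Myl6, Arhgap42, Foxd1, Nr2f1, Notch3, Kcnmb1, Cacna1c, Casq2, P2ry14, Ednra, Lama2, Pdgfrb, Cox4i2, Itga8, Tpm1, Flna, Atp2a2, Klf4 and the subgroup genes were chosen after their values were seen.
Some genes are not reported here.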

Additional observations from a re-analysis of the deposited data

Results flagged for a closer look

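In 75 sets of 4 values, 4 held a 3-month library far from the other 3, and chance marks about 1 in 20. All 4 were 3-month replicate 1. It was the highest for Ccn2, a target of YAP signalling, at 494 CPM, for the Notch target Hes1 at 825 CPM, and for Slc2a4 at 93.8 CPM, and the lowest for Ltbp1 at 136 CPM.

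The effect of age in smooth muscle members differed from that in endothelial barcodes by the interaction test for 10 named genes. On the log2 scale, members minus endothelial barcodes, the difference was 1.80 for Ddit4, 1.09 for Klf2, 0.99 for Fam118a, 0.77 for Ets2 and 0.72 for Golgb1. It was -4.69 for Ifitm1, -3.29 for Ccl19, -2.92 for Meg3, -2.39 for Rarres2 and -2.37 for Trpv2. In members alone, Ddit4, Ets2, Golgb1, Rarres2 and Trpv2 were not called by age. Subgroup 5 held 80.6% of the 3-month UMIs of Ifitm1, 93.0% of Ccl19 and 66.4% of Meg3.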

How the results depend on the processing

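The difference in share turned to 0.599 percentage points with barcodes thinned to 1500 UMIs, 0.0294 without subgroup 5, 0.515 without 12-month replicate 3 and 0.0767 without 3-month replicate 2, and ran from -0.980 to 0.515 over fits without 1 library; at most 10% mitochondrial UMIs gave -1.07, the value farthest from 0. The cause was not tested. Genes higher at 12 months (9) numbered 5 with thinned barcodes and 49 without a filter, and 5 to 20 with 1 library left out. Genes lower (14) numbered 5 at most 10% mitochondrial UMIs, 4 with thinned barcodes, 2 without subgroup 5, 71 without a filter, 9 at 50 CPM in 3 libraries and 3 to 37 with 1 library left out. With the replicate block 8 were higher and 22 lower, but same-numbered libraries of the ages did not deviate together (correlations 0.043, 0.111 and -0.022), so the numbers were not taken as pairs. Interaction calls (39 higher, 234 lower) numbered 17 and 132 with DESeq2, 25 and 115 at 50 CPM, 95 higher without a filter, 140 lower with sums thinned, and 13 to 93 and 103 to 299 with 1 library left out. More or fewer genes and samples enter these fits, and other causes were not tested. No named gene reversed. Depth limits genes of few UMIs, above all in 12-month replicate 1.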
